A study of Homo sapiens with 6 samples.

Results

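CD180 and the toll-like receptors were followed in MM.1S cells, an established human multiple myeloma cell line, by RNA-seq on day 3 after transduction with a lentivirus. The shNT cells carried a scramble short hairpin RNA and the shPRKCN cells carried a hairpin against PRKCN, a kinase of the protein kinase D family whose current symbol is PRKD3, and each group had 3 libraries of the same parental line. The labels give 1 hairpin per group and do not say which of the listed PRKCN hairpins it was, so an effect of its sequence on other transcripts cannot be told apart from the loss of PRKCN. The labels do not say whether the 3 libraries of a group came from separate transductions, so the p-values measure the spread between these libraries, which may be technical. The genes were CD180, LY86, LY96, TLR1, TLR4, TLR6, TLR7, TLR9, TLR10 and MYD88, and all 10 were among the 21850 genes listed. The set was chosen by its first member: CD180 was selected on the size of its rise in this same comparison, and its partner LY86, toll-like receptors and MYD88 were added by family. The change of CD180 is therefore given as a description without a test.

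Toll-like receptors are leucine-rich repeat receptors that sense microbial products. TLR1, TLR4, TLR6 and TLR10 act at the cell surface, whereas TLR3, TLR7 and TLR9 sense nucleic acids in endosomes. TLR4 binds lipopolysaccharide together with the secreted protein MD-2, encoded by LY96. CD180, also called RP105, resembles TLR4 outside the cell but lacks the intracellular TIR domain, and it reaches the surface of B cells together with MD-1, encoded by LY86. Most of these receptors signal through the adaptor MYD88. B cells use them to respond to microbes, and CD180 is found on mature B cells and is low on plasma cells.

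The libraries held between 35625564 and 37730003 counted reads. PRKD3, the targeted gene, fell from 1260 ± 41.7 CPM (reads scaled to library size, with TMM factors) under the scramble hairpin to 517 ± 23.4 CPM with the PRKCN hairpin; values with ± are the mean and SD of 3 libraries throughout. The marker lists moved within themselves, where a gene was called if its adjusted p was under 0.05 with a fold past 0.58 on the log2 scale, as 6.15% of all tested genes were upward and 10.6% downward. Of 11 tested plasma cell markers 4 were called lower, namely IRF4 (624 to 173 CPM), XBP1 (913 to 375 CPM), TNFRSF17 (138 to 62.9 CPM) and SLAMF7 (426 to 218 CPM), while SDC1 (CD138) went from 896 to 1020 CPM, and the list summed to 9380 to 9510 CPM in shNT and 8110 to 8230 CPM in shPRKCN libraries. Of 9 tested markers of mature B cells 2 were called higher, CR2 (25.1 to 58.6 CPM) and CD79B (21.7 to 35.9 CPM), and 3 lower, CIITA (67.0 to 26.8 CPM), FCRLA (7.62 to 2.95 CPM) and CD72 (0.495 to 0.133 CPM). That list summed to 149 to 158 CPM and 155 to 157 CPM, with MS4A1, PAX5 and CD22 at no more than 0.0889 CPM on average. Of 5 tested myeloid markers S100A9 (0.379 to 1.4 CPM) and SPI1 (7.08 to 11.2 CPM) were called higher and CD68 (17.1 to 11.4 CPM) lower, in sums of 23.6 to 26.5 CPM and 23.2 to 26.0 CPM, with CD14 and LYZ at no more than 0.142 CPM. The T and NK cell list summed to 12.5 to 13.9 CPM in shNT and 30.4 to 35.8 CPM in shPRKCN libraries, with CD3E (10.9 to 28.8 CPM) and CD7 (1.17 to 3.38 CPM) called higher, GNLY (0.559 to 0.214 CPM) lower, and CD3D and CD3G at no more than 0.0183 CPM. The filter on low counts (minimum 10) kept CD72 and GNLY through the shNT libraries and S100A9 through the shPRKCN libraries. These genes therefore had to differ, and their calls are given as a description only. The part of these lists in the results was not tested. In bulk libraries a change in the share of cells that express a gene and a change in its RNA per cell cannot be told apart.

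Per length of gene, the members spanned a wide range in shNT cells. In deposited FPKM (reads scaled by gene length and library size), LY96 was highest at 15.3 ± 0.345, followed by MYD88 at 9.02 ± 0.241. The surface receptors TLR6 (2.85 ± 0.147), TLR1 (1.66 ± 0.0567) and TLR4 (1.61 ± 0.0488) lay near each other on this scale, with LY86 between TLR6 and TLR1 at 2.05 ± 0.243. TLR1 and TLR4 overlapped between libraries and so did not differ beyond their spread on this scale. The order between genes depends on the lengths used for FPKM. The counts and FPKM imply 8706 bases for TLR1, 12797 for TLR4 and 1318 for LY96. The endosomal receptors were lower, with TLR7 at 0.216 ± 0.0222 FPKM and TLR9 at 0.159 ± 0.0226 FPKM. CD180 (0.0291 ± 0.017 FPKM) and TLR10 (0.0271 ± 0.0187 FPKM) were lowest and overlapped. After knockdown LY96, MYD88, TLR1, TLR4 and TLR10 kept their rank, while CD180 moved above TLR9 and TLR9 above TLR7. LY86 and TLR6 exchanged ranks. In shPRKCN cells the libraries of LY86 (2.99 ± 0.471 FPKM), TLR6 (2.72 ± 0.232 FPKM) and TLR1 (2.51 ± 0.0978 FPKM) overlapped each with the next.

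CD180 was nearly silent in control cells. The shNT libraries held 2, 7 and 9 of its reads, the shPRKCN libraries 93, 99 and 93. The lowest shPRKCN library was far above the highest shNT library, and the shPRKCN libraries were nearly equal to each other. In CPM the level went from 0.162 ± 0.095 to 2.53 ± 0.113, and the log2 fold change fitted with edgeR (log2FC, shPRKCN over shNT, given with its standard error, SE) was 3.92 (SE 0.362). Summed over libraries, 18 reads stood against 285, a ratio of 15.6 per sequenced read with an exact 95% counting interval of 9.71 to 26.7. That interval pools the libraries and covers counting error only. Neither it nor the SE is a test, since CD180 was chosen on this rise. Without shNT 1, the library with 2 counts, log2FC was 3.53, and without shNT 3 it was 4.31. With 1 FPKM added to every value the log2 difference was 0.50, since both levels lie under 1 FPKM. CD180 passed the filter on low counts through the shPRKCN libraries only, so that it had to differ. On this gene's locus, chr5:67179613-67196799 on the minus strand in GRCh38.p14, the nearest tested genes were MAST4 at 10020 bases and PIK3R1 at 1018957 bases. MAST4 had a log2FC of 0.21 (SE 0.0993, adjusted p = 0.073, where p-values come from the quasi-likelihood fit and are adjusted by Benjamini-Hochberg over every tested gene), and PIK3R1, a regulatory subunit of phosphoinositide 3-kinase, of 0.29 (SE 0.049).

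Of the 13971 genes tested, the 5 most like CD180, by the mean absolute difference of centred log2 CPM over the 6 libraries, were IFI44L (0.294), LOC105371457 (0.362), DDX60 (0.448), SLC7A8 (0.458) and NLRP3 (0.533). This measure favours genes with a rise near that of CD180, on which CD180 was chosen, and theirs ran from log2FC 3.42 to 4.19. All 5 passed the filter on low counts through the shPRKCN libraries, so they had to differ, and a shared cause was not tested. IFI44L and DDX60 are interferon-stimulated genes, SLC7A8 is an amino acid transporter and NLRP3 is an inflammasome sensor. Like CD180, NLRP3 was near the floor in control cells, where it had at most 2 counts, against 13, 24 and 26 after knockdown.

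LY86, the partner of CD180, changed far less. Its counts were 105, 88 and 111 in shNT libraries and 162, 123 and 164 in shPRKCN libraries. The groups did not overlap, but shPRKCN 2 lay close to the controls. The level went from 2.78 ± 0.332 to 3.99 ± 0.589 CPM, with a log2FC of 0.52 (SE 0.175, adjusted p = 0.0089). Without shNT 2 it was 0.43 with an adjusted p of 0.051 in edgeR, and without shPRKCN 2 it was 0.64, past the fold limit of 0.58. LY86 lies at chr6:6588720-6654982 on the plus strand. Its antisense gene LY86-AS1 overlaps it and had 1 read in all libraries together. The nearest tested genes on either side were distant, NRN1 at 581202 bases and RREB1 at 452761 bases. NRN1 was lower (log2FC −1.14, SE 0.0589, adjusted p = 7.8e-27), and RREB1 overlapped between groups (log2FC 0.06, SE 0.053, adjusted p = 0.35).

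The promoters of the 6 members found in the RefSeq promoter table for GRCh38.p14 (CD180, LY86, TLR4, TLR6, TLR9 and MYD88; 250 bases before to 50 after the start) were searched on both strands for 3 motifs. These were GAAANNGAA, the core of an interferon-stimulated response element, GGAANNGAA, the core of a composite site for ETS and IRF factors, and the NF-κB consensus GGGRNNYYCC. Here N is any base, R is A or G, and Y is C or T. Shorter or looser forms of the NF-κB site were not searched. The first pair cannot match at the same bases of the same strand. LY86 and MYD88 held the first motif, which occurs in 8.29% of 27305 promoters. TLR4 held the second on both strands, which occurs in 7.84%. CD180, TLR6 and TLR9 held neither, and none of the 6 held the NF-κB consensus, which occurs in 10.8%. A match describes letters only, and its use in these cells was not tested. The 120 bases before the start of CD180, the member with the largest change, are shown beside those of the members that hold a match, 5′ to 3′ in the sense of the gene, with matches in capitals:
CD180, chr5:67196800-67196919, minus strand: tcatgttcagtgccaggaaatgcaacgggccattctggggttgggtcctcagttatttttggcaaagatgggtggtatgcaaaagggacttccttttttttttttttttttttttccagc
LY86, chr6:6588600-6588719, plus strand: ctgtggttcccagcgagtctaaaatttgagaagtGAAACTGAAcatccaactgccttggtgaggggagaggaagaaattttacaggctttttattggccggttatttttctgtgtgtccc
TLR4, chr9:117704283-117704402, plus strand: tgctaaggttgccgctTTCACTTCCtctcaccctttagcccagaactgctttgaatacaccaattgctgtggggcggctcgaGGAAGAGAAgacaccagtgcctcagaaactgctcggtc
MYD88, chr3:38138541-38138660, plus strand: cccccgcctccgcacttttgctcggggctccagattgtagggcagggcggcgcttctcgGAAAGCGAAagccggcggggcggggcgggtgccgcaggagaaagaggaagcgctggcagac

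Of the 8 other members tested, 5 were higher and 1 was lower in shPRKCN cells (adjusted p under 0.05), and 2 did not pass. The same limit was passed upward by 26.5% and downward by 27.8% of everything tested. Past the fold limit as well were 2 higher (LY96, TLR9) and 1 lower (TLR7), against 6.15% and 10.6% of all tested genes. The median log2FC of the 8 was 0.48, beside 0.00 for all tested genes. The groups did not overlap in 6 of the 8, nor in 58.8% of all tested genes. A non-overlap is thus common in these data and is not particular to these genes.

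Of TLR4 and its co-receptor LY96, the co-receptor rose and TLR4 did not pass the test. TLR4 had 748, 733 and 785 counts in shNT and 816, 780 and 863 in shPRKCN libraries. These ranges overlapped, and log2FC was 0.08 (SE 0.0697, adjusted p = 0.35). LY96 had 719, 725 and 774 counts in shNT and 1133, 1248 and 1131 in shPRKCN libraries, with no overlap. Its level rose from 20.2 ± 0.487 to 31.2 ± 2.04 CPM, or log2FC 0.62 (SE 0.0651, adjusted p = 4.7e-13). Without shPRKCN 2 it was 0.57, under the fold limit. CD14, which hands lipopolysaccharide to this receptor, averaged 0.0999 CPM in shNT and 0.142 CPM in shPRKCN cells and was not tested.

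A ratio of 2 genes within a library does not depend on how libraries are scaled. The following ratios were chosen after the values of the genes were seen, so their p-values describe them and are no separate tests. LY96 over TLR4, in FPKM, was 9.33, 9.6 and 9.57 in shNT and 13.5, 15.5 and 12.7 in shPRKCN libraries. The shPRKCN libraries all lay above the controls, and the exact permutation test gave p = 0.1 (2-sided), the smallest that 3 libraries against 3 allow. With LY96 already separating the groups and TLR4 nearly level, this p was fixed beforehand and adds no support. LY86 over CD180 was 217, 51.9 and 51.0 in shNT and 7.2, 5.13 and 7.29 in shPRKCN libraries. LY86 RNA thus exceeded that of CD180 per length in every library, by a smaller factor after knockdown, and this ratio uses the values that chose CD180. The ratio of the MD-2 to the MD-1 gene overlapped between groups: LY96 over LY86 was 6.97 to 8.39 in shNT and 7.02 to 10.3 in shPRKCN libraries (exact permutation test, p = 0.6, 2-sided).

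TLR1 and TLR6, which each pair with TLR2 to sense bacterial lipopeptides, are neighbours on chromosome 4, and TLR10 adjoins them. TLR10 lies at chr4:38772238-38782990, TLR1 at chr4:38787569-38805644 and TLR6 at chr4:38822897-38868390 in GRCh38.p14, and 17253 bases separate TLR1 from TLR6. TLR1 had 526, 544 and 524 counts in shNT and 830, 781 and 831 in shPRKCN libraries. Its level rose from 14.6 ± 0.493 to 21.7 ± 0.629 CPM, and log2FC was 0.576 (SE 0.0757, adjusted p = 9.9e-10), just under the fold limit. With upper-quartile scaling (0.584), library-size scaling (0.596), no filter (0.582) and DESeq2 (0.58 when rounded), and without shNT 1 (0.592), shNT 2 (0.593) or shPRKCN 2 (0.60), it lay past that limit. TLR6 had 776, 865 and 800 counts in shNT and 808, 710 and 835 in shPRKCN libraries. These overlapped, with a log2FC of −0.09 (SE 0.0709, adjusted p = 0.28).

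The ratio of TLR1 to TLR6 went from 0.604, 0.56 and 0.583 in shNT to 0.915, 0.979 and 0.886 in shPRKCN libraries, a log2 change of 0.67 (exact permutation test, p = 0.1, 2-sided). With TLR1 already separating the groups and TLR6 nearly level, this p was fixed beforehand and adds no support. The genes are close paralogs: 249 of 4673 stretches of 50 bases in GENCODE release 29 transcripts of TLR1, or 5.33%, also occur in TLR6, so a part of the reads could have been counted on either. TLR6 also overlaps FAM114A1 on the opposite strand, which went from 0.907 ± 0.415 to 0.48 ± 0.0738 CPM with overlapping libraries (log2FC −0.91, SE 0.395, adjusted p = 0.045). TLR10 had 7, 3 and 2 counts in shNT and 1, 4 and 9 in shPRKCN libraries. Such counts allow no direction, and TLR10 did not pass the filter. Its summed ratio was 1.15 with an exact 95% counting interval of 0.494 to 2.72. The tested genes on either side of this cluster were KLF3, with a log2FC of 0.19 (SE 0.0478, adjusted p = 0.00052), and TMEM156, with 0.72 (SE 0.272). The call of TMEM156 was lost with DESeq2 (adjusted p = 0.056). It was also lost without shNT 1 (edgeR adjusted p = 0.13), shNT 2 (0.058), shPRKCN 2 (0.072) or shPRKCN 3 (0.14).

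The endosomal receptors TLR7 and TLR9 moved in opposite directions from low levels. TLR7, a sensor of single-stranded RNA, had 40, 43 and 36 counts in shNT and 23, 16 and 19 in shPRKCN libraries, without overlap. Its level fell from 1.09 ± 0.111 to 0.515 ± 0.0937 CPM, or log2FC −1.07 (SE 0.363, adjusted p = 0.0099). TLR9, a sensor of unmethylated DNA, had 16, 22 and 21 counts in shNT and 49, 29 and 44 in shPRKCN libraries. It rose from 0.537 ± 0.0754 to 1.08 ± 0.274 CPM, or log2FC 1.01 (SE 0.364, adjusted p = 0.016), with shPRKCN 2 nearest to the controls. This call rests on few reads and was lost without shNT 1 (0.90, edgeR adjusted p = 0.06), shPRKCN 1 (0.85, edgeR adjusted p = 0.10) or shPRKCN 3 (0.96, edgeR adjusted p = 0.053). TLR9 over TLR7 in FPKM was 0.597, 0.764 and 0.871 in shNT and 3.18, 2.71 and 3.46 in shPRKCN libraries (exact permutation test, p = 0.1, 2-sided). Each gene already separated the groups, in opposite directions, so this p was fixed beforehand and adds no support. The more abundant of the pair per length changed from TLR7 to TLR9.

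TLR7 lies at chrX:12867072-12890361. The tested genes on either side of it, PRPS2 (log2FC −0.74, SE 0.0525) and TMSB4X (−0.56, SE 0.0341), were lower as well. TLR9 lies at chr3:52221080-52225645 on the minus strand, between ALAS1 and TWF2. ALAS1 overlapped between groups (log2FC −0.00, SE 0.0519, adjusted p = 0.96), and TWF2 had 0.22 (SE 0.0586). These neighbours of TLR7 and TLR9 were named after their values were seen.

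MYD88, the shared adaptor, was measured with more reads. It had 895, 881 and 932 counts in shNT and 1278, 1220 and 1270 in shPRKCN libraries, and every shPRKCN library was above every control. The level rose from 24.7 ± 0.706 to 33.5 ± 0.707 CPM, which is 135% of the control level. Its log2FC of 0.44 (SE 0.0604, adjusted p = 4.1e-09) stayed under the fold limit, and lay between 0.42 and 0.45 with any 1 library left out. MYD88 lies at chr3:38138661-38143022 on the plus strand. Its neighbours ACAA1 (log2FC 0.08, SE 0.0705) and OXSR1 (−0.15, SE 0.0446) lay nearer to 0.

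The toll-like receptors outside the set were scarce. TLR3, the endosomal sensor of double-stranded RNA, had 3, 12 and 7 counts in shNT and 36, 24 and 23 in shPRKCN libraries. These did not overlap, and the fitted log2FC was 1.86 (SE 0.478). TLR3 passed the filter through the shPRKCN libraries, so that it had to differ and is given without a test, and its fold rests on few control reads. The summed ratio was 3.72 with an exact 95% counting interval of 2.3 to 6.26. This interval pools the libraries, covers counting error only and is no test either. TLR2 (7, 5 and 4 against 1, 2 and 7 counts) and TLR5 (6, 9 and 7 against 11, 22 and 10 counts) were not tested, and TLR8 was not listed. The promoters of TLR3 and TLR8 hold a GAAANNGAA match and those of TLR2 and TLR5 do not, beside 8.29% of all promoters searched.

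Of the other genes of the pathway, 128 were put in 10 lists by role and 104 were tested. At an adjusted p under 0.05, 37 were higher (35.6%, beside 26.5% of all tested genes) and 35 lower (33.7%, beside 27.8%). The fold limit was also passed by 8 higher, TLR3 among them (7.69%, beside 6.15% of all tested genes) and 13 lower (12.5%, beside 10.6%). The same all-gene shares apply to the counts of each list given in the following, which are small numbers of genes. The median log2FC over these was 0.02.

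Of the 9 tested co-receptors and trafficking factors, 4 were higher and 4 lower by the adjusted p limit of 0.05, beside 26.5% and 27.8% of all tested genes. TASL and SLC15A4, which together recruit IRF5 at endolysosomes to signal for TLR7 and TLR9, were both past the fold limit. TASL fell from 20.7 ± 1.48 to 10.1 ± 0.507 CPM, or log2FC −1.03 (SE 0.0847, adjusted p = 3.1e-17). SLC15A4 fell from 16.6 ± 0.192 to 10.4 ± 1.75 CPM, or log2FC −0.68 (SE 0.0934, adjusted p = 3.2e-09). Several further genes were named after their values were seen. UNC93B1, which escorts the endosomal receptors from the endoplasmic reticulum, rose from 246 ± 4.05 to 351 ± 2.8 CPM, or log2FC 0.51 (SE 0.034), under the fold limit. The chaperones of these receptors differed in direction, with CNPY3 at 0.23 (SE 0.051) and HSP90B1 at −0.22 (SE 0.032) on the log2 scale.

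Among 10 tested endolysosomal proteins, 4 were higher and 3 lower by that limit, beside 26.5% and 27.8% of all tested genes. PLD4, an exonuclease that degrades single-stranded nucleic acids in endolysosomes, was the only one of them past the fold limit. It fell from 13.4 ± 0.741 to 6.48 ± 0.764 CPM, or log2FC −1.05 (SE 0.106, adjusted p = 1.2e-13). Its relative PLD3 had a log2FC of 0.17 (SE 0.0391), and CTSS, a protease able to process TLR9, of 0.55 (SE 0.0401); both were named after their values were seen.

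**Figure D1:**
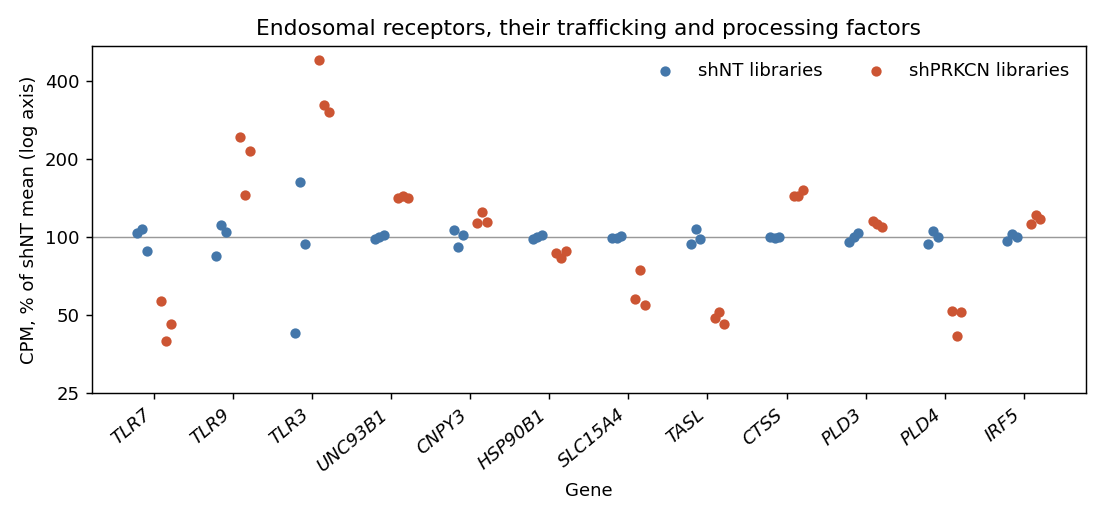
CPM of each library as a percentage of the shNT mean of that gene, on a log axis, for the endosomal receptors and the factors that carry them, process them or signal from them (blue for shNT, orange for shPRKCN). TLR7, SLC15A4, TASL, PLD4 and HSP90B1 lie below all shNT libraries, and TLR9, TLR3, UNC93B1, CTSS, CNPY3, PLD3 and IRF5 above them.

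Of the 5 adaptors, TICAM1 had a log2FC of −0.25 (SE 0.0613, adjusted p = 0.00043), TIRAP of 0.21 (SE 0.0946, adjusted p = 0.049) and PIK3AP1 of 0.22 (SE 0.0922, adjusted p = 0.041). The calls of TIRAP and PIK3AP1 were lost with DESeq2 (adjusted p = 0.11 and 0.074). Leaving out shNT 3, shPRKCN 1 or shPRKCN 2 ended that of TIRAP (edgeR adjusted p up to 0.38), and leaving out any library but shPRKCN 3 ended that of PIK3AP1 (up to 0.23). SARM1 had −0.07 (SE 0.134, adjusted p = 0.67), and TICAM2 was not tested. Of the 22 kinases and ubiquitin factors around IRAK and TRAF6, 8 were higher, 4 lower and 10 did not pass, where all tested genes had 26.5% higher and 27.8% lower. IKBKE, a kinase of IRF factors, was past the fold limit at 0.60 (SE 0.0525), or under it at 0.57 without shPRKCN 1. PELI2, an E3 ligase that binds IRAK proteins, was past it at 0.73 (SE 0.315, adjusted p = 0.044). That call was lost without any single library other than shPRKCN 2, with adjusted p from edgeR of up to 0.17.

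Receptors of the IL-1 family share MYD88 with the toll-like receptors. IL1RAP, an accessory chain of several of them, fell with a log2FC of −0.78 (SE 0.136, adjusted p = 1.4e-06), and SIGIRR, an inhibitory member, rose with 0.87 (SE 0.266, adjusted p = 0.0043). Without shNT 2 the adjusted p of SIGIRR was 0.059 in edgeR. Among 14 tested negative regulators, 4 were higher and 6 lower by the adjusted p limit of 0.05, set against 26.5% and 27.8% of all tested genes. INPP5D (SHIP1, a lipid phosphatase) was at 0.61 (SE 0.0396), and DUSP1 (a MAPK phosphatase) and CD300A (an inhibitory receptor) at −1.50 (SE 0.0369) and −0.90 (SE 0.0905).

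Transcription factors and response genes of the pathway included the largest decreases. FOS (−2.67, SE 0.0488) and JUN (−2.41, SE 0.0385) were the only ones of 14 transcription factors past the fold limit. Of the 16 tested response genes, 4 were higher and 7 lower by the adjusted p limit of 0.05, where the shares of all tested genes were 26.5% and 27.8%. IL10 (0.79, SE 0.166) and the costimulatory ligand CD86 (0.70, SE 0.0671) rose most, while the chemokines CCL3 (−2.23, SE 0.0388) and CCL4 (−1.81, SE 0.359) fell most on the log2 scale. Both chemokine genes have near-identical copies, so their read counts are uncertain. TNF, IL6 and IL1B averaged at most 0.151 CPM in either group and were not tested. Of 11 tested partners of CD180 in B cell signaling, 5 were higher and 3 lower by the adjusted p limit of 0.05, again beside 26.5% and 27.8% of all tested genes. LYN, the kinase through which CD180 signals in B cells, had a log2FC of 0.29 (SE 0.0526) and was named after its value was seen. PRKCB, a protein kinase C of B cells, was the only one past the fold limit, at −0.88 (SE 0.12).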

How the data were processed

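RNA-seq was analysed in 6 MM.1S libraries, 3 with a scramble hairpin (shNT) and 3 with a PRKCN hairpin (shPRKCN), on day 3. The authors deposited raw counts for 21850 genes and FPKM values, which the authors scaled by gene length and total counted reads. The submitters' processing notes name FastQC, HISAT2 and StringTie and the build GRCh38.p14. The counting program, the annotation and the strand setting are not given in the sources used here, so reads of overlapping genes cannot be told apart. Totals ran from 35625564 to 37730003.

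After TMM scaling, filterByExpr (minimum count 10) kept 13971 genes, which entered the quasi-likelihood test of edgeR 4.0.16 in R 4.3.3, and p-values were adjusted over all of these by Benjamini-Hochberg. The limits, adjusted p under 0.05 and log2 fold change beyond 0.58, are those of the study, which used DESeq2. The standard error is the log2 fold change divided by the square root of F. Exact permutation tests and exact counting intervals used scipy 1.17.1. Alternatives were DESeq2 1.42.0, other scalings and filters, a block for the replicate number, leaving out single libraries, limma 3.58.1 on log2(FPKM + 1) or log2(FPKM + 0.1), no fold limit and glmTreat. The edgeR and DESeq2 fits were tested on simulated data, with changes planted only in genes with more counts. Planted changes in genes with few counts, or near the fold limit, were not simulated. No pair of libraries agreed within sampling noise, with a chi-square per degree of freedom of at least 3.38.

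The members and lists were chosen with earlier results of these data known. The rule names every member, PRKD3, the listed adaptors and other toll-like receptors, per list the 2 genes that rose most and the 2 that fell most past both limits, the nearest tested neighbours of CD180, LY86, TLR1, TLR6, TLR10 and MYD88, and the 5 genes most like CD180. Sequences and positions are from RefSeq, GRCh38.p14. Protein sequences were not used here.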

Additional observations from a re-analysis of the deposited data

How the results depend on the processing

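The 9 tested members kept their direction under the alternatives in which each was fitted. TLR10 did not pass the filter of the main fit, and no fitted change is given for it. Against a fold of 0.58 (glmTreat), the adjusted p was 1.0 for LY86 (0.52), TLR1 (0.58) and MYD88 (0.44), 0.65 for LY96 (0.62), 0.25 for TLR7 (−1.07) and 0.34 for TLR9 (1.01), so none of these 6 is shown to exceed that fold. With single libraries left out, LY86 ran from 0.43 to 0.64 and TLR9 from 0.85 to 1.19 on the log2 scale. The log2 difference of CD180 was 0.50 with a pseudocount of 1 FPKM and 2.12 with 0.1 FPKM, because pseudocounts compress low levels. Genes called higher and lower were 859 and 1475, and became 3700 and 3877 with no fold limit, 339 and 821 with glmTreat, 315 and 648 on log2(FPKM + 1), and 310 and 635 on that scale with an FPKM of at least 1 in 3 libraries. Pathway genes called were 8 higher and 13 lower, and became 37 and 35 with no fold limit. The 8 higher became 1 with glmTreat and 3 on log2(FPKM + 1) with or without the minimum. With glmTreat an adjusted p under 0.05 was reached by 1 higher and 10 lower pathway genes. SARM1, with single libraries left out, ran from −0.15 to 0.0058 and changed sign without shNT 2, where its adjusted p was 0.98.

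Same-numbered libraries did not deviate together (correlations −0.0419, −0.0133 and 0.00381), so no pairing by number was seen. With 3 libraries per group such correlations cannot exclude a weak pairing. With the replicate block 0.70 was found for PELI2 (adjusted p = 0.057 in edgeR), and no member changed its side of the adjusted p limit. Depth limits TLR2, TLR5, TLR7, TLR9 and TLR10, with under 50 counts in every library, and CD180 and TLR3 in shNT cells.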
